A study of Homo sapiens with 6 samples.

Results

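The lower glycolytic enzymes are the proteins that carry glucose 6-phosphate to pyruvate, leaving aside the phosphofructokinase step. The 10 genes described here were chosen by symbol, from glucose phosphate isomerase to pyruvate kinase, namely GPI, ALDOA, ALDOC, TPI1, GAPDH, PGK1, PGAM1, ENO1, ENO2 and PKM. All 10 were among the 38557 genes listed in the count files, and all 10 were among the 16107 that passed the filter on low counts. The RNA was sequenced from heart muscle cells made from WTC11, an established human line of induced pluripotent stem cells (iPSC), and the labels call the cells WT. They were kept in either RPMI plus B27 (B27 is a serum-free supplement) or DMEM plus fatty acids, with 3 libraries per medium that carry the replicate numbers 1 to 3. What else the media held, and for how long the cells were in them, the labels do not state. All 6 libraries came from this 1 cell line.

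In glycolysis the upper enzymes spend ATP to phosphorylate and split glucose, and the lower ones recover it. Aldolase and triose phosphate isomerase deliver glyceraldehyde 3-phosphate, GAPDH oxidizes it, and phosphoglycerate kinase and pyruvate kinase then make ATP. Many of these genes are known targets of hypoxia-inducible factor (HIF), and adult heart muscle draws most of its energy from fatty acids, whereas foetal and iPSC-derived cardiomyocytes rely more on glycolysis.

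The libraries held 23232324 to 31035389 gene counts. Levels are given as CPM, counts brought to a common library size after TMM scaling, which sets the bulk of genes equal between libraries. All 12 cardiomyocyte markers examined, among them TNNT2, ACTN2 and RYR2, were detected in every library, and their summed level was 32613 to 38687 CPM in RPMI plus B27 and 25591 to 36301 CPM in DMEM plus fatty acids (0 of 12 passed the edgeR test below, 3 at an unadjusted p under 0.05, 2 lower with the replicate block, and 1 higher and 2 lower by DESeq2). Fibroblast, smooth muscle and epicardial markers were lower as sums in DMEM plus fatty acids. For the counts that follow, 1.36% of all tested genes passed the edgeR test and 4.78% passed with the block (3.42% lower). The 15 fibroblast and stromal markers summed to 7342 to 15345 CPM in RPMI plus B27 and 1190.1 to 2883 CPM in DMEM plus fatty acids (6 of 14 tested passed, all 6 lower, and 10 with the block). The 10 smooth muscle markers summed to 2078 to 2582 and 649 to 1613 CPM, with 1 lower (4 with the block). The 8 epicardial markers summed to 1972 to 2394 and 882 to 1097 CPM, with 1 of 5 tested lower (4 with the block). Nearly all of the epicardial sum was KRT8, KRT18 and KRT19, while WT1, UPK3B and MSLN had 0 to 23 counts. The 6 endothelial markers summed to 29.3 to 239 and 115 to 464 CPM, nearly all of it KDR, while PECAM1, CDH5 and VWF had 0 to 11 counts. Of 2 endothelial markers tested 0 passed (0 at an unadjusted p under 0.05, 0 by DESeq2 and KDR higher with the block). The 8 pluripotent and endoderm markers summed to 17.4 to 104 and 7.71 to 27.6 CPM, NANOG had at most 1 count in any library, and 0 of 3 tested passed (0 at an unadjusted p under 0.05, 0 by DESeq2 and AFP lower with the block). The part of these cells in the results below was not tested, and in bulk RNA fewer cells of a type and less RNA per cell cannot be told apart.

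All 10 enzyme genes had lower mean CPM in DMEM plus fatty acids. In each of the 3 replicate numbers the DMEM plus fatty acids library was below the RPMI plus B27 library for all 10. For GPI the ratio in replicate 2 was 0.999, and its direction depends on the scaling (below). The share of all tested genes that were lower in all 3 replicate numbers was not counted. The fitted log2 fold changes (DMEM plus fatty acids relative to RPMI plus B27) ran from -2.30 for ENO2 to -0.069 for GPI, with a median of -0.77, beside a median of 0.01 over all tested genes, of which 49.0% were negative. The 10 genes together took 1.52%, 1.14% and 0.993% of the gene counts in RPMI plus B27 replicates 1 to 3, and 0.793%, 0.736% and 0.774% in DMEM plus fatty acids. Every RPMI plus B27 library was thus above every DMEM plus fatty acids library in this sum.

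None of the 10 passed an adjusted p of 0.05 in the edgeR quasi-likelihood test over all genes (Benjamini-Hochberg), where 1.36% of all tested genes did (1.07% lower and 0.292% higher), although 8 had an unadjusted p under 0.05 (17.7% of all genes). Replicate numbers were treated as pairs, since libraries with the same number deviated together from the means of their media. When the replicate number was fitted as a block, 5 of the 10 passed and all 5 fell in DMEM plus fatty acids (ALDOC, TPI1, PGK1, ENO1 and ENO2), where 3.42% of all tested genes were called lower and 4.78% either way. The DESeq2 Wald test called 8 of the 10 lower (4.93% of its genes were lower and 7.05% called either way), all but GPI and ALDOA. For 6 of the 10 genes (TPI1, GAPDH, PGK1, PGAM1, ENO1 and PKM) the 3 libraries of each medium did not overlap, with DMEM plus fatty acids lower, as for 12.8% of all tested genes (25.6% did not overlap in either direction).

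**Figure D1:**
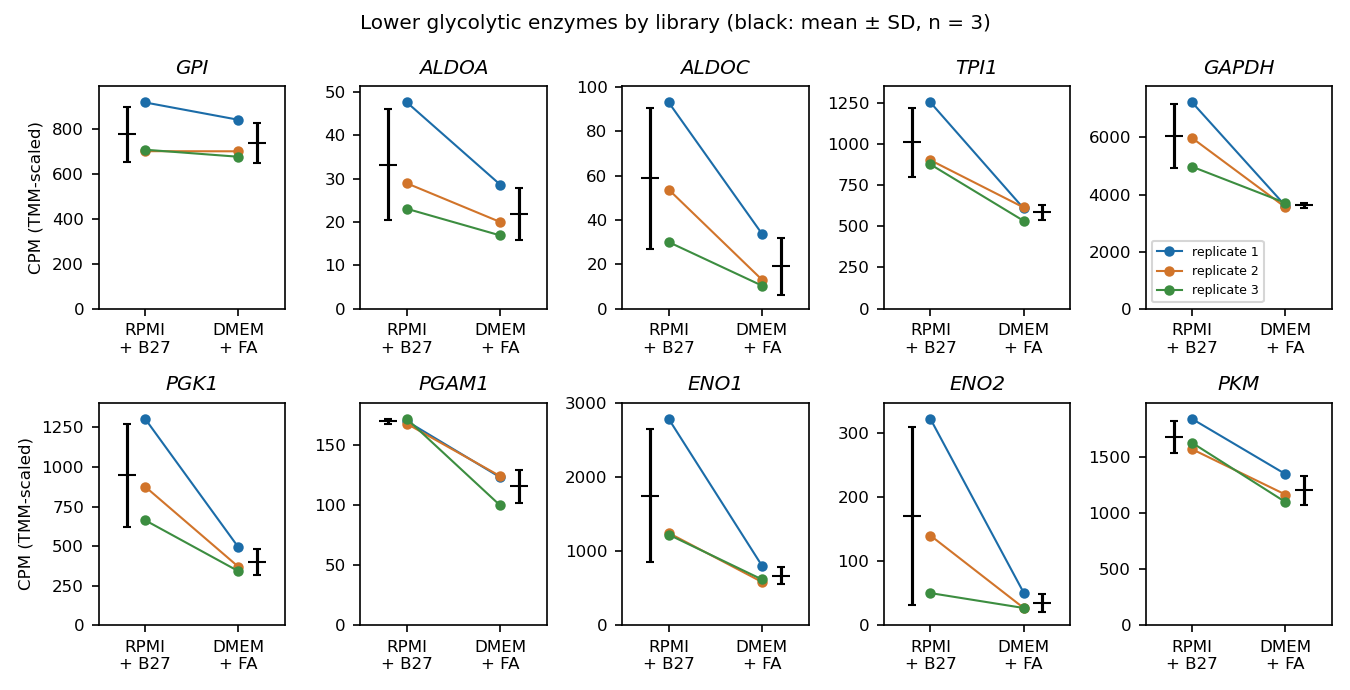
CPM (y axes, linear and starting at 0) of the 10 enzyme genes in each library, by medium (x axes; FA, fatty acids). Lines join libraries with the same replicate number, and black bars give the mean ± SD of 3 libraries. Every line runs downward, from 919 to 842 CPM for GPI in replicate 1 and from 322 to 50.6 CPM for ENO2 in the same pair.

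The first of these enzymes, GPI, converts glucose 6-phosphate to fructose 6-phosphate. Its level was 919, 702 and 709 CPM in RPMI plus B27 replicates 1 to 3 and 842, 702 and 677 CPM in DMEM plus fatty acids. The groups overlapped, and the log2 fold change was -0.069 ± 0.17 (SE, adjusted p 0.865, edgeR). Its sign turned with the scaling and with 1 library, to 0.037 when libraries were scaled by their totals alone and to 0.069 without RPMI plus B27 replicate 1, so GPI has no direction here. In GENCODE 29 the gene lies at chr19:34359480-34402413 (GRCh38, plus strand).

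Aldolase splits fructose 1,6-bisphosphate into 2 triose phosphates. ALDOC, the brain-type aldolase (chr17:28573115-28577264, minus strand), had 93.1, 53.7 and 30.0 CPM in RPMI plus B27 and 33.8, 13.04 and 10.3 CPM in DMEM plus fatty acids. DMEM plus fatty acids replicate 1 lay above RPMI plus B27 replicate 3, so the groups overlapped, while the ratio to the RPMI plus B27 library of the same number was 0.363, 0.243 and 0.345. The log2 fold change was -1.63 ± 0.55 with an adjusted p of 0.187, and -1.68 ± 0.15 with 0.00884 in the fit with the block (edgeR).

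ALDOA, the muscle aldolase, was listed at only 47.6, 28.9 and 23.04 CPM in RPMI plus B27 and 28.6, 20.0 and 16.9 CPM in DMEM plus fatty acids. Its log2 fold change was -0.61 ± 0.31 (adjusted p 0.357, and 0.0581 with the block, edgeR), and -0.25 without RPMI plus B27 replicate 1. These counts are uncertain, because 82.6% of the bases of its principal transcript in GENCODE 29 (chr16:30064164-30070457, plus strand) also belong to another gene on the same strand. A gene of that kind, LOC112694756, is a row of the count files, with 22 to 50 counts per library, and in RefSeq it spans nearly all of ALDOA. Reads overlapping more than 1 gene were set apart as ambiguous in the files. They made up 4.11% to 4.15% of each RPMI plus B27 library and 3.90% to 3.96% of each DMEM plus fatty acids library. How many of them came from ALDOA was not tested, and its level is left out of the order of levels below.

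TPI1 interconverts both triose phosphates (chr12:6867119-6870948, plus strand). It had 1255, 903 and 877 CPM in RPMI plus B27 and 609, 615 and 534 CPM in DMEM plus fatty acids, with no overlap. In the fit its log2 fold change came to -0.79 ± 0.18 (adjusted p 0.0865), and -0.77 ± 0.15 with 0.0475 in the fit with the block (edgeR).

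GAPDH, which oxidizes glyceraldehyde 3-phosphate and reduces NAD, was the most abundant of the 10 (chr12:6533927-6538374, plus strand). It had 7228, 5979.5 and 4974 CPM in RPMI plus B27 and 3605, 3552 and 3705 CPM in DMEM plus fatty acids. The DMEM plus fatty acids libraries lay close together, with a coefficient of variation of 2.15%, against 18.6% in RPMI plus B27, and the groups did not overlap. The log2 fold change was -0.74 ± 0.20, adjusted p 0.124, or 0.110 in the blocked fit (edgeR), and 0.00184 by DESeq2.

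PGK1 makes the first ATP of the pathway (chrX:77910739-78129296, plus strand). Its level was 1304, 875 and 663 CPM in RPMI plus B27 and 491, 368 and 340.5 CPM in DMEM plus fatty acids, where the highest value stayed below the lowest of the other medium. The log2 fold change was -1.24 ± 0.27 (adjusted p 0.0808), and -1.21 ± 0.15 with the block (adjusted p 0.0175, edgeR).

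PGAM1, the phosphoglycerate mutase that moves the phosphate from carbon 3 to carbon 2 (chr10:97426160-97433441, plus strand), was the most even gene in RPMI plus B27, at 169, 167 and 171 CPM. It had 123, 124 and 99.4 CPM in DMEM plus fatty acids, again with no overlap. The fitted log2 fold change was -0.55 ± 0.12, and the adjusted p was 0.0825 without and 0.0532 with the block (edgeR). Its muscle paralog PGAM2 was listed at 0 in all 6 libraries, but all of its transcript is overlapped on the opposite strand by DBNL, which had 2311 to 3241 counts, and the strand setting of the counting is not stated. The 0 is therefore not read as absence.

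Enolase makes phosphoenolpyruvate and has 3 main paralogs, ENO1 (alpha, widespread), ENO2 (gamma, known from neurons) and ENO3 (beta, known from muscle). ENO1 (chr1:8861000-8879250, minus strand) had 2782, 1243 and 1219.9 CPM in RPMI plus B27 and 802, 581 and 616 CPM in DMEM plus fatty acids. RPMI plus B27 replicate 1 was more than 2 times as high as the other libraries of its medium, and the groups did not overlap. The log2 fold change was -1.39 ± 0.35 (adjusted p 0.107), -1.29 ± 0.20 with the block (adjusted p 0.0283, edgeR), and -0.89 without RPMI plus B27 replicate 1.

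ENO2 (chr12:6913745-6923698, plus strand) was the most uneven of the 10 within RPMI plus B27, with a coefficient of variation of 81.3%, while in DMEM plus fatty acids that was ALDOC, with 67.3%. ENO2 had 322, 139.9 and 49.9 CPM in RPMI plus B27 and 50.6, 26.7 and 26.6 CPM in DMEM plus fatty acids. The highest DMEM plus fatty acids library was just above the lowest RPMI plus B27 library. The log2 fold change was -2.30 ± 0.63 (adjusted p 0.127), -2.01 ± 0.34 with the block (adjusted p 0.0349, edgeR), and -1.46 without RPMI plus B27 replicate 1.

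PKM, the muscle and general pyruvate kinase that makes pyruvate and ATP (chr15:72199029-72231822, minus strand), had 1838, 1568 and 1624.5 CPM in RPMI plus B27 and 1346, 1164 and 1097 CPM in DMEM plus fatty acids. The groups did not overlap, and the log2 fold change was -0.48 ± 0.15, adjusted p 0.176, or 0.118 in the blocked fit (edgeR), and 0.0435 by DESeq2. The PKM1 and PKM2 splice forms share a gene symbol and cannot be separated in these counts. Of 4 splicing factors known to act on PKM (HNRNPA1, HNRNPA2B1, PTBP1 and SRSF3), 0 passed (0 with the block and 0 by DESeq2, and 0 at an unadjusted p under 0.05), with log2 fold changes from -0.28 to 0.04. The 2 with the smallest p were PTBP1 (-0.28 ± 0.16) and HNRNPA1 (-0.20 ± 0.14).

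**Figure D2:**
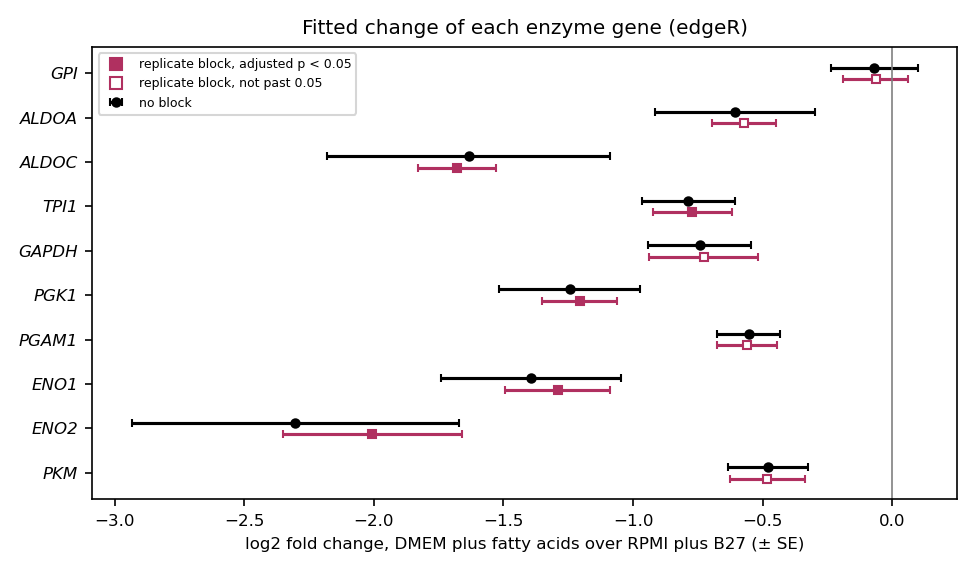
Fitted log2 fold change (x axis, DMEM plus fatty acids relative to RPMI plus B27, ± SE) of each enzyme gene (y axis) without the replicate block (black circles) and with it (red squares, filled where the adjusted p was under 0.05). The circles run from -2.30 ± 0.63 for ENO2 to -0.069 ± 0.17 for GPI. The squares run from -2.01 ± 0.34 for ENO2 to -0.064 ± 0.13 for GPI, and 5 are filled.

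The stretches just before the transcription start are shown for the 4 genes with the largest differences, since these genes were lower together in DMEM plus fatty acids. Each is the 250 bases upstream of the outermost RefSeq start (GRCh38.p14), read 5′ to 3′ on the strand of the gene. Capitals mark ACGTG or its reverse complement CACGT, 1 form of the core that HIF is known to bind. The other form, GCGTG, was neither marked nor counted here, and it does occur in the ALDOC, ENO1 and PGK1 stretches. The palindrome CACGTG holds both and was counted as 1 place. ENO2 is chr12:6914330-6914579 on the plus strand, ALDOC chr17:28576896-28577145 on the minus strand, ENO1 chr1:8878687-8878936 on the minus strand and PGK1 chrX:78103998-78104247 on the plus strand.
ENO2: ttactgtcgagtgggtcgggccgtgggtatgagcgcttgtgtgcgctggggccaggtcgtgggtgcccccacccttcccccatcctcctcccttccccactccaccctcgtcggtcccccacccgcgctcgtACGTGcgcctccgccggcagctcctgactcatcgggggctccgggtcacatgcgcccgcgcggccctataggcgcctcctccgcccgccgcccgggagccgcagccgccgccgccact
ALDOC: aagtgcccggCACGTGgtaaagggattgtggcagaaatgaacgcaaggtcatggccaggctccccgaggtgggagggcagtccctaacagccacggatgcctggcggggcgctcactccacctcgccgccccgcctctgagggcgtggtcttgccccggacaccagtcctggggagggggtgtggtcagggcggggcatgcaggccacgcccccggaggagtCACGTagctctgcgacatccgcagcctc
ENO1: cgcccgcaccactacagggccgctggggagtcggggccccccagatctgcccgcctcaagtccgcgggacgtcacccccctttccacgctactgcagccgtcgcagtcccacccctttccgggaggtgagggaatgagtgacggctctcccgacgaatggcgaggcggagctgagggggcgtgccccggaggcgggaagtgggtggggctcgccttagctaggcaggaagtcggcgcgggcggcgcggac
PGK1: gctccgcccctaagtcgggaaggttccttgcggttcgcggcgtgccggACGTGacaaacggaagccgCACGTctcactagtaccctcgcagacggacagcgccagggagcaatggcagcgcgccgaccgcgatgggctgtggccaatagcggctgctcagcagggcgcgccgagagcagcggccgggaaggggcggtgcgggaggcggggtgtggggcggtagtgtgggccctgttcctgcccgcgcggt
PGK1 and ALDOC each held the letters in 2 places, ENO2 in 1 and ENO1 in 0 within this window. All 10 genes had an entry in the table, with 13 start sites in all, of which 9 held the letters at least once (7 of the 10 genes) and 2 held them in 2 places or more. Among all 35116 promoter windows of the same length, 18.5% held them at least once, 2.61% in 2 places or more and 6.34% held CACGTG. TPI1 at 1 of its start sites, PGAM1 and PKM had no match in their windows, and GPI, whose counts hardly differed, had 1. A match describes letters and is not evidence of binding.

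Per kilobase of principal transcript, which allows levels of different genes to be set side by side, GAPDH was highest in both media, at 3232 ± 602 CPM per kb in RPMI plus B27 against 1931 ± 41.5 in DMEM plus fatty acids (n = 3 each, SD). In RPMI plus B27 it was followed by ENO1 (982 ± 503 CPM per kb), TPI1 (822 ± 171) and PKM (669.9 ± 56.9). ENO1 and TPI1 differed by less than the SD of either, and TPI1 and PKM by less than that of TPI1 but more than that of PKM. Then came GPI (381 ± 60.6), PGK1 (194 ± 66.8), PGAM1 (92.5 ± 1.09), ENO2 (60.4 ± 49.1) and ALDOC (29.7 ± 16.1). In DMEM plus fatty acids the order after GAPDH was PKM (480.4 ± 51.6 CPM per kb), TPI1 (476 ± 36.9), ENO1 (374 ± 66.6) and GPI (363 ± 43.6), where PKM and TPI1, and likewise ENO1 and GPI, differed by less than their spread. PGK1 (81.8 ± 16.4), PGAM1 (63.0 ± 7.53), ENO2 (12.3 ± 4.89) and ALDOC (9.62 ± 6.48) followed. ENO2 differed from PGAM1 and ALDOC in RPMI plus B27, and from ALDOC in DMEM plus fatty acids, by less than its own spread. The place of ENO1 in RPMI plus B27 rests on replicate 1, where it had 1562 CPM per kb against 1019 for TPI1. In replicates 2 and 3 it was below TPI1, at 698 and 685 against 734 and 713 CPM per kb. These levels depend on the transcript chosen to stand for each gene.

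The level of ENO3, the muscle enolase outside the 10, overlapped between the media. It had 669, 846 and 667 CPM in RPMI plus B27 and 841, 868 and 596 CPM in DMEM plus fatty acids, with overlapping groups and a log2 fold change of 0.079 ± 0.19 (adjusted p 0.865, and 0.809 with the block, edgeR). Its share of the counts of ENO1, ENO2 and ENO3 was 17.7%, 38.0% and 34.4% in RPMI plus B27 replicates 1 to 3 and 49.7%, 58.8% and 48.1% in DMEM plus fatty acids. Every DMEM plus fatty acids library was above every RPMI plus B27 library, and ENO3 was the most counted enolase in 2 of the 3 DMEM plus fatty acids libraries and in none of the RPMI plus B27 ones. The mean share went from 30.0% ± 10.8 to 52.2% ± 5.78 (n = 3 each, SD), a difference of 22.2 percentage points. An exact two-sided permutation test gave p = 0.1, the smallest that 3 against 3 libraries allow (0.2 adjusted over 8 shares), and within replicate numbers the differences were 31.9, 20.8 and 13.7 points (exact sign-flip p = 0.25, the smallest that 3 pairs allow). The 95% Wilson intervals of the single shares were at most about 1 point wide, for example 17.5% to 18.0% in RPMI plus B27 replicate 1, and cover counting error only.

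The share of ENO1 went the other way, from 64.2% ± 9.05 to 45.5% ± 5.42 without overlap (exact permutation p = 0.1, n = 3 each). That of ENO2 was 8.54%, 6.28% and 2.58% in RPMI plus B27 and 2.99%, 1.81% and 2.15% in DMEM plus fatty acids, which overlapped (exact permutation p = 0.2). The 3 enolases have coding sequences of 1302 bases each, and counted per base of principal transcript the ENO3 share was 35.0% ± 11.8 and 57.7% ± 5.59. Their summed level was 2646 ± 987 CPM in RPMI plus B27 against 1469 ± 228 CPM in DMEM plus fatty acids (n = 3 each, SD).

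**Figure D3:**
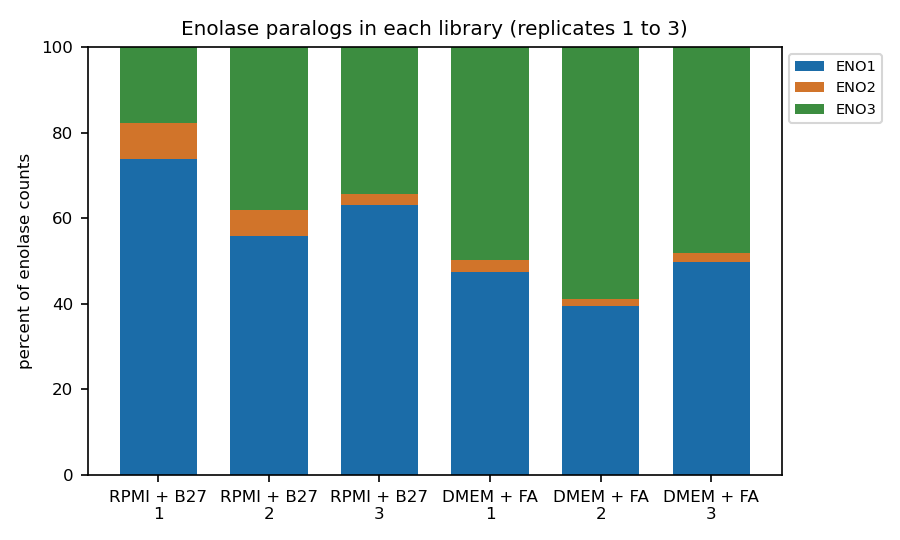
Share of ENO1, ENO2 and ENO3 in the enolase counts (y axis, percent) of each of the 6 libraries (x axis, 1 bar per library). The ENO3 part is 17.7% to 38.0% in RPMI plus B27 and 48.1% to 58.8% in DMEM plus fatty acids.

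At the other steps 1 paralog held nearly all counts or the shares were uncertain. PKM had from 99.9892% to all of the pyruvate kinase counts of a library, and the liver and red cell paralog PKLR had 0 to 4 counts. ALDOC held 62.4% ± 5.35 of the aldolase counts in RPMI plus B27 against 43.8% ± 8.97 in DMEM plus fatty acids without overlap (exact permutation p = 0.1, n = 3 each), a share that rests on the uncertain ALDOA counts. GAPDHS, the sperm GAPDH, and BPGM, which makes 2,3-bisphosphoglycerate, were the other paralogs tested, at -0.40 ± 0.22 and -0.31 ± 0.15 on the log2 scale, and neither passed (adjusted p 0.394 and 0.345, edgeR). PGK2, PGAM4 and ENO4 had at most 18 counts in any library and were not tested.

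The balance among the 10 genes was described by the level of each relative to the others. Relative to the mean log2 level of the 10 in each library, GPI stood 0.87 higher in DMEM plus fatty acids than in RPMI plus B27 and ALDOA 0.36 higher, while PGK1 stood 0.27 lower, and for these 3 the libraries of the media did not overlap. For PGK1 the relative level was nearly constant within each medium, at 1.0, 1.01 and 0.94 in RPMI plus B27 and 0.71, 0.71 and 0.72 in DMEM plus fatty acids on the log2 scale. ENO2 stood 1.06 lower, ALDOC 0.75 lower and ENO1 0.36 lower, and PKM 0.45, PGAM1 0.37, GAPDH 0.21 and TPI1 0.16 higher, all with overlap. Leaving out 1 library moved 6 of the 10 values by over 1.5 times. Without RPMI plus B27 replicate 1 they were 0.12 for PGAM1, 0.094 for GAPDH, 0.079 for TPI1, 0.27 for PKM, -0.22 for ENO1 and -0.66 for ENO2. Without RPMI plus B27 replicate 3 they were 0.59 for PGAM1 and 0.28 for TPI1. Among the DMEM plus fatty acids libraries, leaving out replicate 1 gave 0.29 for TPI1 and 0.37 for GAPDH, leaving out replicate 2 gave 0.078 for TPI1, and leaving out replicate 3 gave 0.081 for GAPDH. No value changed sign when 1 library was left out. ALDOA, whose counts are uncertain, is part of the mean of the 10, and with the mean of the other 9 genes GPI stood 0.91 higher and PGK1 0.23 lower, both still without overlap. Exact two-sided permutation tests (n = 3 each) gave p = 0.1 for GPI, ALDOA and PGK1 and 0.2 to 0.4 for the others, or 0.286 to 0.4 adjusted over the 10 genes, so no single difference in balance passed in this design.

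**Figure D4:**
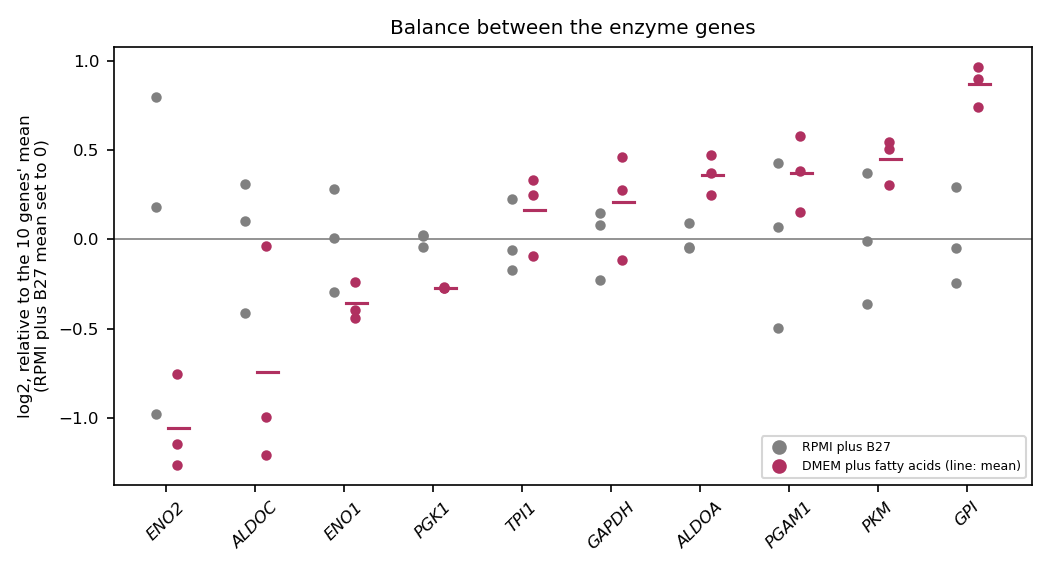
Level of each enzyme gene relative to the mean log2 level of the 10 genes in the same library (y axis, log2, with the RPMI plus B27 mean set to 0), for RPMI plus B27 (grey) and DMEM plus fatty acids (red, line at the mean). ENO2 lies lowest at -1.06 and GPI highest at 0.87, and the groups are apart for GPI, ALDOA and PGK1.

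The libraries of 1 medium also kept an order across the genes. RPMI plus B27 replicate 1 was the highest of all 6 libraries for 9 of the 10 genes, PGAM1 being the exception, and DMEM plus fatty acids replicate 1 was the highest of its medium for 7 of the 10. DMEM plus fatty acids replicate 3 was the lowest of all for 8. The same order was not counted over all tested genes, so it is not shown to be particular to these 10. The 18 hypoxia-responsive genes outside glycolysis summed to 2656, 1667 and 1203 CPM in RPMI plus B27 and 1288, 934 and 852 CPM in DMEM plus fatty acids, highest in replicate 1 of each medium as well. The fibroblast and stromal sum was also highest in RPMI plus B27 replicate 1, at 15345 CPM. Within DMEM plus fatty acids it was lowest in replicate 1, at 1190.1 CPM. Whether either sum is tied to the levels of the enzyme genes was not tested. Without RPMI plus B27 replicate 1 the median log2 fold change of the 10 was -0.60.

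Among the 10028 genes whose mean reached 10 CPM, those outside the 10 whose centred log2 profile over the 6 libraries was nearest to the median profile of the enzyme genes included AMPD2 (an AMP deaminase), FRMD6, ZSWIM4 and SIAH2 (a ubiquitin ligase). The root mean square differences of these 4 from it were 0.07 to 0.10 on the log2 scale, while those of the 10 genes themselves ran from 0.07 for TPI1 to 0.87 for ENO2. AMPD2, the nearest, had 91.9, 56.0 and 53.5 CPM in RPMI plus B27 and 44.1, 38.5 and 35.7 CPM in DMEM plus fatty acids.

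In the rest of the pathway, 1 of 12 tested genes of upper glycolysis passed without the block, the lower PFKFB3 (log2 fold change -1.43 ± 0.25, adjusted p 0.0471, edgeR), which sets fructose 2,6-bisphosphate, and 5 passed in the blocked fit, of which 4 were lower and 1 higher. Over all tested genes 1.36% passed without the block and 4.78% with it (3.42% lower). The median over the 12 was -0.74, near the -0.77 of the lower enzymes. Of the 12, 7 were negative, where the lower enzymes had 10 of 10, counting GPI, which has no direction here. DESeq2 called 7 of the 12 lower and 1 higher (4.93% of its genes were lower and 7.05% called either way). The libraries of the media did not overlap for 7 lower and 1 higher of the 12 (12.8% of all tested genes in each direction). Of 13 genes that handle pyruvate and lactate, LDHA alone passed without the block (lower, -2.26 ± 0.32, adjusted p 0.0347), 5 passed with it (1 higher, 4 lower), and the median was 0.09. Gluconeogenesis genes, which run parts of the route backwards, had 0 of 4 passing (1 at an unadjusted p under 0.05 and 1, PCK2, higher with the block and by DESeq2), the 2 with the smallest p being PCK2 (2.22 ± 0.42, adjusted p 0.0583, edgeR) and FBP2 (-0.58 ± 0.40).

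Of 23 genes in pathways that branch from glycolytic intermediates, 2 passed without the block. PSAT1, of serine synthesis from 3-phosphoglycerate, was higher (2.01 ± 0.32, adjusted p 0.0405), and GBE1, the glycogen branching enzyme, was lower (-0.82 ± 0.14, adjusted p 0.0477, edgeR). With the block 3 passed (2 higher, 1 lower), and the median of the 23 was 0.07. Beside these and the counts below, 1.36% of all tested genes passed without the block and 4.78% with it (3.42% lower). The hypoxia-responsive genes outside glycolysis had 2 of 16 tested passing, both lower, BNIP3 of mitophagy (-2.04 ± 0.32) and P4HA2, a collagen prolyl hydroxylase (-1.08 ± 0.19), 10 with the block, all lower, and a median of -0.99. Of 10 tested regulators of glycolysis and oxidative metabolism, 0 passed (3 at an unadjusted p under 0.05, 1 higher with the block and 1 by DESeq2). The 2 with the smallest p were ESRRG, an oestrogen-related receptor (0.72 ± 0.16, adjusted p 0.0875 and 0.0255 with the block), and MLXIP, a glucose-sensing factor (-0.48 ± 0.13, adjusted p 0.125, edgeR).

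GAPDH and PGK1 are widely used as reference genes in PCR, so their differences were set beside those of 15 other common reference genes. Their median log2 fold change was -0.01, with 7 positive and 8 negative, and ran from -1.01 to 0.58. Of these, 1 passed, ACTB (cytoplasmic actin), at 1071 ± 121 CPM in RPMI plus B27 against 530.3 ± 81.1 CPM in DMEM plus fatty acids (-1.01 ± 0.17, adjusted p 0.0423, and 0.0319 with the block, edgeR). GAPDH (-0.74) and PGK1 (-1.24) were thus below 14 and 15 of the 15 in turn, ACTB being the 1 below GAPDH. TBP, the TATA-binding protein, had the smallest difference of the 15, with 18.6 ± 0.831 CPM in RPMI plus B27 against 18.6 ± 1.81 CPM in DMEM plus fatty acids.

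**Figure D5:**
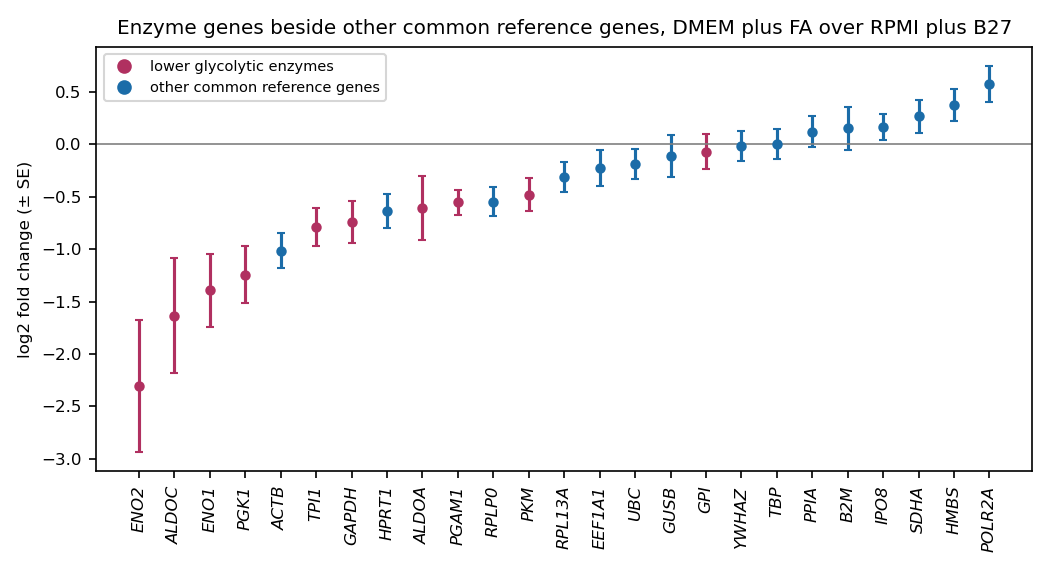
Fitted log2 fold change (y axis, ± SE, DMEM plus fatty acids relative to RPMI plus B27) of the 10 enzyme genes (red) and 15 other common reference genes (blue), in order of size (x axis). The blue points run from -1.01 for ACTB to 0.58 for POLR2A, and GAPDH lies at -0.74 and PGK1 at -1.24.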

How the data were processed

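The authors deposited unnormalized whole-number counts for each gene symbol, with a file for each library. Per the submitters' processing notes the build was hg38 and the tools named were STAR and HTSeq, and the gene annotation and the strand setting are not given in the sources used here. Per the labels' protocols, libraries were made from column-purified RNA with a stranded mRNA kit. Reads aligned to more than 1 place are a summary row of the files and were not used with the other summary rows. They were 3.76% to 4.10% per library in RPMI plus B27 and 3.05% to 3.36% in DMEM plus fatty acids. GENCODE 29 lists 62 pseudogenes named after GAPDH and 13 after PGAM1, so counts of these genes may be too low. Whether such a loss differed between the media for these genes was not tested.

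Counts were filtered with filterByExpr (minimum count 10, minimum total count 15), scaled by TMM and tested with edgeR 4.0.16 in R 4.3.3 over all 16107 genes and 6 libraries, with Benjamini-Hochberg adjustment and a threshold of 0.05. The alternatives were DESeq2 1.42.0, other scalings and filters, a replicate block and leaving out libraries. The fitting was tested on simulated data. Standard errors follow from the F statistic. Same-numbered libraries correlated in their deviations from the mean of their medium at 0.31, 0.43 and 0.37 over all tested genes. Other pairs correlated at -0.24 to -0.14, in part because deviations within a medium sum to 0. The numbers were treated as pairs from these same data, although what they stand for is not stated in the labels. All 15 pairs of libraries differed by more than sampling noise (smallest chi-square per degree of freedom 29.4). P values measure the spread between these cultures of 1 line. In the blocked fit and the sign-flip tests that is the spread of the difference between media within replicate numbers. The edgeR fit had 4 residual degrees of freedom without the block and 2 with it.

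Transcript lengths and coordinates are those of the APPRIS principal transcript and the gene in GENCODE 29, and promoter sequences are from RefSeq. Named are the 10 genes, their paralogs, in each other list the genes that passed or else the 2 with the smallest p, and the 5 genes nearest in profile, although some genes under this rule are not reported here. TBP, POLR2A and the cell type markers given by name were chosen after their values were seen. The 10 genes and the lists were chosen with earlier results of these data known.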

Additional observations from a re-analysis of the deposited data

How the results depend on the processing

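All 10 enzyme genes kept a negative log2 fold change in each alternative, except GPI, which was 0.037 with library totals and -0.17 to 0.069 without 1 library (0.069 without RPMI plus B27 replicate 1). The number of the 10 called, 0 in the test without a block, was 8 by DESeq2 (ALDOC -1.63, TPI1 -0.79, GAPDH -0.75, PGK1 -1.24, PGAM1 -0.56, ENO1 -1.39, ENO2 -2.30 and PKM -0.48), 4 without the low-count filter (TPI1 -0.77, PGK1 -1.23, ENO1 -1.37 and ENO2 -2.28), 5 with the replicate block (ALDOC -1.68, TPI1 -0.77, PGK1 -1.21, ENO1 -1.29 and ENO2 -2.01), and 0 whichever of the 6 libraries was dropped. With the block and both libraries of 1 replicate number left out, chosen after seeing the data, it was 2 to 7 (7, 2 and 4 without numbers 1, 2 and 3). Over all genes these fits called 1898, 413 and 913 in turn, and each had 1 residual degree of freedom. The 2 to 7 are therefore not read as a result about the 10 genes. Adjusted p values over the 12 alternatives ran from 0.000780 to 0.243 for PGK1, 0.00123 to 0.325 for ENO2, 0.00202 to 0.287 for ENO1, 0.00316 to 0.235 for TPI1 and 0.00884 to 0.420 for ALDOC.

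Over all genes the count of 219 (172 lower) became 1237 (865 lower) by DESeq2, 539 (413) without the filter, 119 (90) with at least 10 counts in every library, 770 (551) with the block, and 3 to 131 (2 to 122 lower) without 1 library, the lowest without DMEM plus fatty acids replicate 3. The lower share of calls was 78.5%, and 63.4% with library totals, a scaling that moved the median of all genes to 0.12. Differences in enolase and aldolase shares kept their sign in all alternatives, with 16.0 to 26.1 points for ENO3 without 1 library. Set against the median level of the 15 reference genes, which replaces the mean of the 10 genes, some balance values changed sign. They became -0.35 for GPI, -0.86 for ALDOA, -1.06 for TPI1, -1.01 for GAPDH, -0.85 for PGAM1 and -0.77 for PKM. In each library that median was the level of PPIA or SDHA, whose fitted log2 fold changes were 0.12 and 0.27. The values therefore lie lower than the fitted fold changes, as for GPI (fitted -0.069). Against the mean without ALDOA, chosen after seeing the data, the other 9 kept their signs. With 3 libraries a group, single shares and balances cannot pass a permutation test.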
